A study of Danio rerio with 12 samples.

Results

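The genes described here are 8 genes of interferon signalling and antigen presentation, stat2, irf9, irf1b, irf7, isg15, b2m, tap1 and cd74a, chosen by name from the 25432 genes of an RNA sequencing table of zebrafish eyes. RNA was sequenced from 12 eyes of adult zebrafish, 6 of genotype akr7a3+/+ (replicates 1, 2, 3, 4, 6 and 7) and 6 of genotype akr7a3-/- (replicates 1, 4, 5, 7, 8 and 9). The akr7a3 allele came from CRISPR/Cas9 editing in the Tg(fli1:EGFP) background, in which endothelial cells carry a green fluorescent protein, and an insertion in the first exon leads to an early stop codon. The labels name no treatment and give neither age, sex, hour of collection nor a sequencing batch, and nothing says whether the eyes of a genotype came from separate animals, so that p-values measure the spread between these eyes. The study asked how the loss of Akr7a3, an aldo-keto reductase that detoxifies reactive aldehydes, alters the eye, and the comparison below asks whether interferon and antigen presentation genes differed with the genotype. Values are FPKM, the fragments on a gene scaled to its length and to the fragments of the eye, so that levels of different genes can be set side by side.

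Interferons are secreted proteins that bind receptors coupled to Janus kinases. In the type I pathway the kinases phosphorylate STAT factors, STAT2 among them, which join IRF9 and switch on interferon-stimulated genes, among them isg15 and irf7. Type II interferon induces irf1, and both routes raise the genes that load peptides on class I molecules. Class I molecules need the light chain b2m and the peptide pump TAP, whereas CD74, the invariant chain, guards class II molecules in macrophages, microglia, dendritic cells and B cells. The resting retina is known for low levels of class I and class II molecules, whereas the values here are RNA levels of whole eyes.

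akr7a3 was measured first, as the check of the labels. It ranged from 1.35 to 2.65 FPKM with a median of 2.15 FPKM in akr7a3+/+ eyes and from 0.267 to 0.414 FPKM with a median of 0.354 FPKM in akr7a3-/- eyes, and the genotypes did not overlap. On the log2 scale the difference was −1.56 (standard error 0.14, limma adjusted p = 2.66e-05), and −2.53 with voom on the recovered reads. Between 21190773 and 35010386 reads fell on genes in an eye, and in each of the 30 pairs of same-genotype eyes the counts differed beyond counting error (lowest chi-square over degrees of freedom 27.8). Photoreceptor markers defined the tissue in every eye, with rho, rod opsin, between 11164 and 28815 FPKM. The summed level of the 10 retinal markers lay between 19223 and 31399 FPKM in akr7a3+/+ eyes and between 33026 and 40383 FPKM in akr7a3-/- eyes, and the part of this difference in the results below was not tested. rho makes up most of this sum, and its own difference did not pass the test (log2 fold change 0.51, limma adjusted p = 0.287). Even so, the genotypes did not overlap in rho, with akr7a3+/+ eyes from 11164 to 21782 FPKM and akr7a3-/- eyes from 22078 to 28815 FPKM. Of the 10 retinal markers 1 was called higher and 1 lower, where 11.55% of all tested genes were called. Of the other marker lists, glia, pigment epithelium and lens had 1 gene higher and 1 lower of 6 tested, blood, muscle and surface epithelium 1 higher and 2 lower of 12, and neutrophils 0 of 3. In whole eyes, fewer cells of a type and less RNA per cell cannot be told apart.

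All 8 genes passed the filter on low values, and of these 8 limma called 0 changed. Over all 18473 tested genes 2133 were called, which is 11.55%, with 5.78% called higher and 5.77% called lower. voom, a limma method for counts, called 0 of the 8 genes on the recovered reads, and 2359 of all tested genes. Without adjustment 1 of the 8 genes, irf1b, had p under 0.05, where 4844 of all 18473 tested genes did. The adjusted p of the 8 genes ran from 0.119 to 0.954. The median log2 fold change of the 8 genes was 0.04 against −0.01 over all tested genes, with 5 genes above 0 and 3 below. For 0 of the 8 genes were the eyes of the genotypes separate, where 6.62% of tested genes had separate eyes. None of the 8 genes lies on the chromosome that carries akr7a3.

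**Figure D1:**
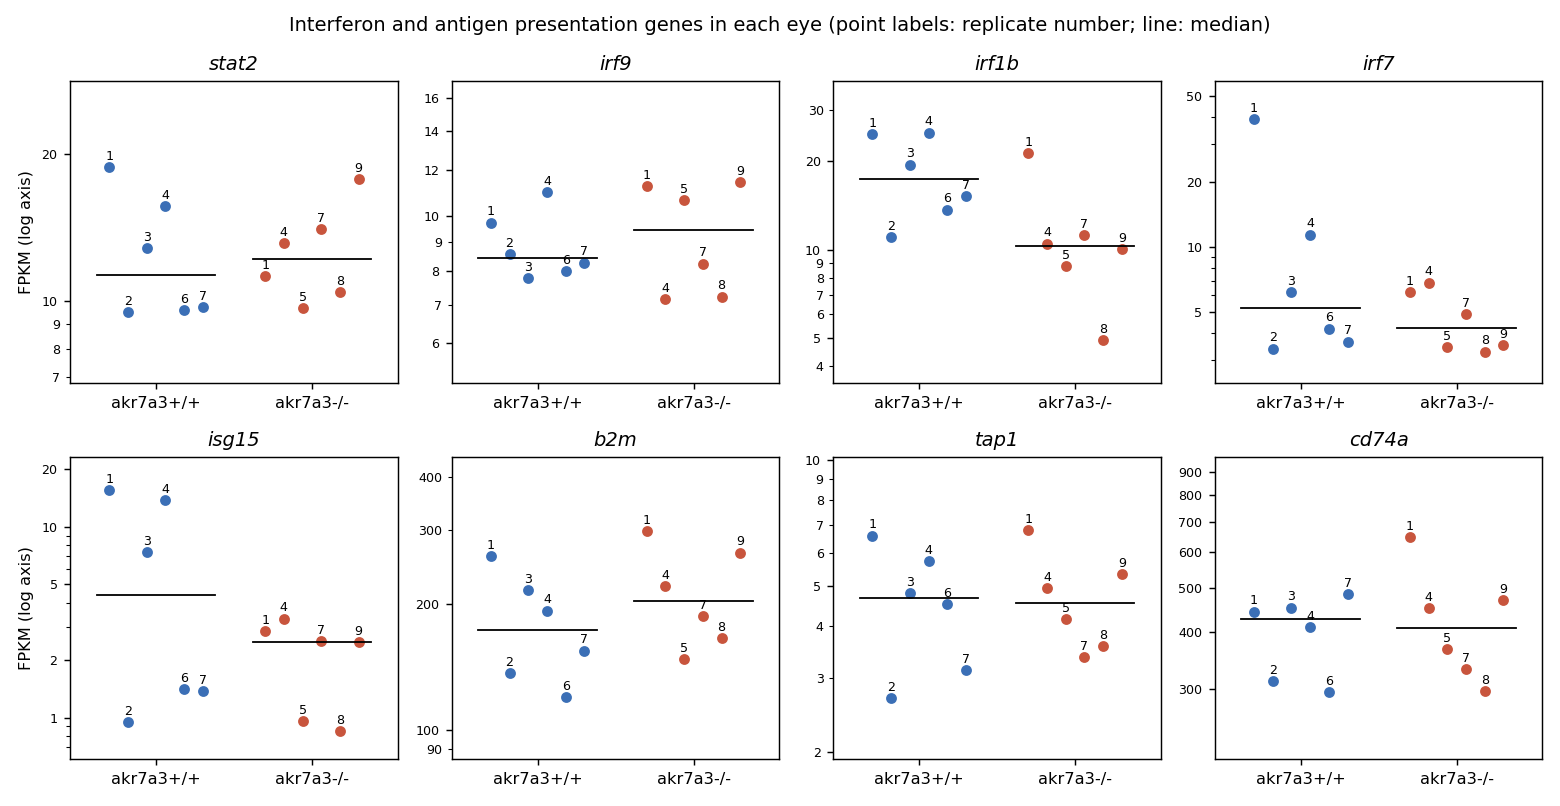
FPKM of the 8 genes in each eye on a log axis, 1 panel per gene, with akr7a3+/+ eyes on the left, akr7a3-/- eyes on the right, replicate numbers at the points and the median of each genotype as a line. The genotypes overlap in all 8 genes, akr7a3+/+ eyes 1 and 4 lead in irf7 and isg15, and 4 akr7a3-/- eyes lie below every akr7a3+/+ eye in irf1b.

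By mean level over the 12 eyes 2 of the antigen presentation genes stood far above the rest. cd74a (414 FPKM) and b2m (197 FPKM) were the most abundant and exceeded 99.4% and 98.5% of tested genes, whereas tap1 (4.64 FPKM) and isg15 (4.46 FPKM) were the lowest. The means of irf1b (14.7 FPKM), stat2 (12.7 FPKM), irf9 (9.11 FPKM) and irf7 (8.02 FPKM) lay between them. Every cd74a and b2m level was above every level of the other 6 genes, cd74a and b2m overlapped over the eyes, and so did neighbours from irf1b downward.

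stat2 (ENSDARG00000031647), a STAT factor of the type I pathway, ran from 9.52 to 18.8 FPKM with a median of 11.3 FPKM in akr7a3+/+ eyes and from 9.70 to 17.8 FPKM with a median of 12.198 FPKM in akr7a3-/- eyes. Both ranges were nearly the same, with akr7a3+/+ eyes 1 and 4 and akr7a3-/- eye 9 at the top. On the log2 scale the genotypes differed by 0.02 (standard error 0.19, 95% interval −0.38 to 0.43, limma adjusted p = 0.954).

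irf9 (ENSDARG00000016457), which gives the STAT complex its DNA binding, had a narrow range. It ran from 7.78 to 11.0 FPKM with a median of 8.43 FPKM in akr7a3+/+ eyes and from 7.16 to 11.4 FPKM with a median of 9.45 FPKM in akr7a3-/- eyes. The genotypes overlapped over nearly the whole range, and the akr7a3-/- eyes fell on both sides of the akr7a3+/+ median, 3 above it. With 0.05 the log2 fold change was small (standard error 0.13, 95% interval −0.24 to 0.34, limma adjusted p = 0.858).

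irf1b (ENSDARG00000043249), a zebrafish copy of IRF1, had the lowest adjusted p of the 8 genes. It ran from 11.0 to 25.1 FPKM with a median of 17.4 FPKM in akr7a3+/+ eyes and from 4.89 to 21.4 FPKM with a median of 10.2 FPKM in akr7a3-/- eyes. Of the akr7a3-/- eyes 4 were below the lowest akr7a3+/+ eye, whereas akr7a3-/- eye 1, at 21.4 FPKM, was in the upper part of the akr7a3+/+ range. The log2 fold change was −0.75 (standard error 0.29, 95% interval −1.38 to −0.12) with an unadjusted p of 0.0232 and an adjusted p of 0.119 in limma. Without akr7a3-/- eye 1 it was −0.96 with an adjusted p of 0.0300, which is past the threshold, and over the other 11 omissions the adjusted p was above it. Leukocyte markers were highest in that same eye, as given further on, and their part in the irf1b level was not tested.

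irf7 (ENSDARG00000045661), which amplifies interferon production, ran from 3.39 to 39.2 FPKM with a median of 5.21 FPKM in akr7a3+/+ eyes and from 3.29 to 6.85 FPKM with a median of 4.21 FPKM in akr7a3-/- eyes. akr7a3+/+ eye 1 stood far above the others, akr7a3+/+ eye 4 came next with 11.4 FPKM, and the other 4 akr7a3+/+ eyes lay within the akr7a3-/- range. The log2 fold change was −0.65 (standard error 0.49, 95% interval −1.71 to 0.41, limma adjusted p = 0.437), and −0.19 without akr7a3+/+ eye 1 (adjusted p = 0.739).

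isg15 (ENSDARG00000086374), a ubiquitin-like modifier and a usual readout of interferon, ran from 0.949 to 15.5 FPKM with a median of 4.41 FPKM in akr7a3+/+ eyes and from 0.851 to 3.30 FPKM with a median of 2.50 FPKM in akr7a3-/- eyes. Among akr7a3+/+ eyes it stood at 15.5, 13.8 and 7.40 FPKM in eyes 1, 4 and 3 and at 1.42, 1.38 and 0.949 FPKM in eyes 6, 7 and 2. The former were above every akr7a3-/- eye and the latter were within the akr7a3-/- range. The log2 fold change was −0.90 (standard error 0.62, 95% interval −2.24 to 0.44, limma adjusted p = 0.395), and −0.54 without akr7a3+/+ eye 1 (adjusted p = 0.612) and −0.57 without akr7a3+/+ eye 4. The lowest eye had 26 reads on isg15 and the highest 619.

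**Figure D2:**
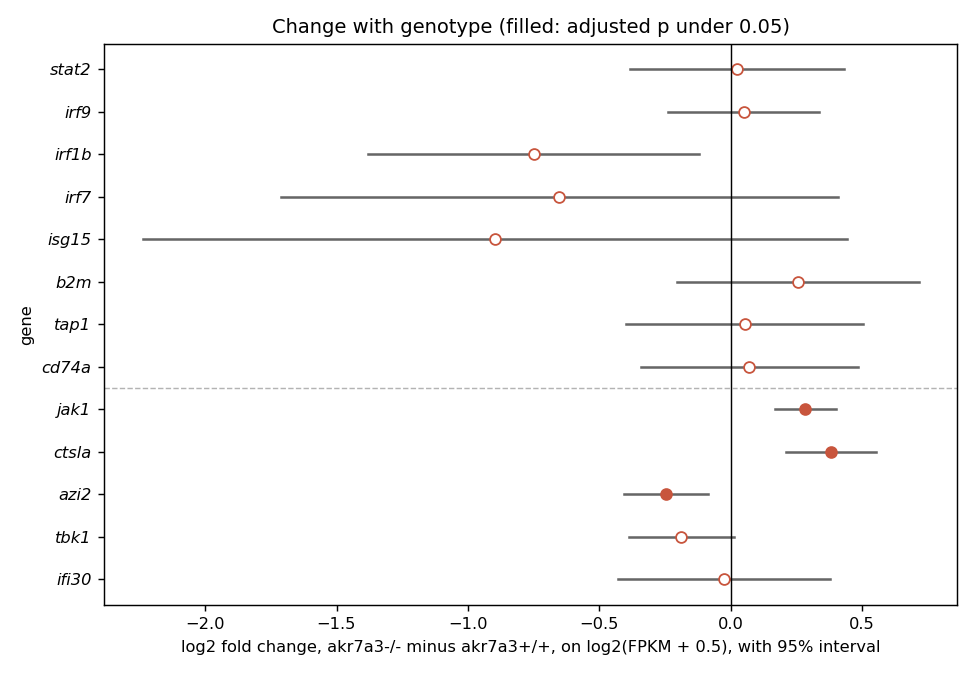
Log2 fold change with its 95% interval for the 8 genes and, under the dashed line, for 5 further genes of the pathway, with filled points where the limma adjusted p was under 0.05. jak1 and ctsla lie above 0 and azi2 below it, and the intervals of irf7 and isg15 are the widest.

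The antigen presentation genes did not pass the test. b2m (ENSDARG00000053136), the light chain of class I molecules, ran from 120 to 260 FPKM with a median of 173 FPKM in akr7a3+/+ eyes and from 147 to 298 FPKM with a median of 203 FPKM in akr7a3-/- eyes. The highest values were those of akr7a3-/- eyes 1 and 9 and akr7a3+/+ eye 1, and the genotypes overlapped. The log2 fold change was 0.25 (standard error 0.21, 95% interval −0.21 to 0.71, limma adjusted p = 0.489), and 0.15 both without akr7a3+/+ eye 6 (adjusted p = 0.704) and without akr7a3-/- eye 1 (adjusted p = 0.7098). b2m is on the study's primer list for RT-qPCR, as is arnt2, and these genes were set side by side after their values had been seen. Over the 12 eyes the coefficient of variation was 28.5% for b2m and 19.4% for arnt2.

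tap1 (ENSDARG00000079766), a subunit of the pump that carries peptides into the endoplasmic reticulum, ran from 2.69 to 6.59 FPKM with a median of 4.66 FPKM in akr7a3+/+ eyes and from 3.38 to 6.79 FPKM with a median of 4.54 FPKM in akr7a3-/- eyes. Eye 1 was the highest in both genotypes, and the ranges overlapped. On the log2 scale the difference was 0.05 (standard error 0.21, 95% interval −0.40 to 0.50, limma adjusted p = 0.907).

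cd74a (ENSDARG00000009087), the invariant chain of class II molecules, ran from 295 to 487 FPKM with a median of 427 FPKM in akr7a3+/+ eyes and from 297 to 649 FPKM with a median of 410 FPKM in akr7a3-/- eyes. Only akr7a3-/- eye 1, at 649 FPKM, was above the akr7a3+/+ range. Between the genotypes the log2 fold change was 0.07 (standard error 0.19, 95% interval −0.34 to 0.48, limma adjusted p = 0.858).

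The genes differed widely in their spread between eyes of the same genotype. On the log2 scale the SD among akr7a3+/+ eyes was 1.59 for isg15 and 1.29 for irf7, larger than in 99.6% and 99.3% of tested genes, whose median was 0.20. Among akr7a3-/- eyes it was 0.64 and 0.42 for these genes, larger than in 96.0% and 89.2% of tested genes, whose median was 0.17. The other 6 genes lay between 0.18 and 0.65 in either genotype. Whether the spread differs between the genotypes was not tested.

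The wider lists of the pathway held 159 further genes of the table, of which 130 were tested and 3 were called, 2.31% against 11.55% over all tested genes. Of the 3 called genes 2 rose, jak1 and ctsla, and 1 fell, azi2. Among interferon ligands, receptors and Janus kinases 1 of 15 tested genes was called, and among nucleic acid sensors and their adaptors 1 of 16. In the class II list 1 of 12 was called. Over all 18473 tested genes 4844 had an unadjusted p under 0.05 in limma, and voom called 2359. Among 18 STAT and IRF factors limma called 0, with 4 at an unadjusted p under 0.05, and voom called 1, stat5b. Among 42 interferon-stimulated effector genes 0 were called by limma, with 2 at an unadjusted p under 0.05, and voom on the recovered reads called 0 as well. In the class I list limma called 0 of 35, again with 2 at an unadjusted p under 0.05, and voom called 1, tapbpl, a homologue of the class I loading factor tapasin.

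jak1 (ENSDARG00000020625), the Janus kinase shared by both interferon pathways and by many cytokine receptors, ran from 16.0 to 17.7 FPKM with a median of 16.7 FPKM in akr7a3+/+ eyes and from 18.0 to 21.5 FPKM with a median of 20.8 FPKM in akr7a3-/- eyes. Every akr7a3-/- eye was above every akr7a3+/+ eye. Its log2 fold change was 0.28 (standard error 0.05, limma adjusted p = 0.00483), and the call held in all 12 fits that left out an eye. jak1 was also the most abundant tested gene of its list.

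ctsla (ENSDARG00000007836), a copy of the lysosomal protease cathepsin L, which takes part in trimming the invariant chain, ran from 44.7 to 50.05 FPKM with a median of 46.9 FPKM in akr7a3+/+ eyes and from 54.0 to 76.7 FPKM with a median of 59.3 FPKM in akr7a3-/- eyes. The genotypes did not overlap. Its log2 fold change was 0.38 (standard error 0.08, limma adjusted p = 0.00806), and the call held in all 12 omissions.

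azi2 (ENSDARG00000102419), an adaptor of the kinase TBK1, ran from 5.93 to 6.89 FPKM with a median of 6.37 FPKM in akr7a3+/+ eyes and from 4.58 to 6.26 FPKM with a median of 5.28 FPKM in akr7a3-/- eyes. Of the akr7a3-/- eyes 5 were below the lowest akr7a3+/+ eye, and akr7a3-/- eye 4 lay inside the akr7a3+/+ range. For azi2 the log2 fold change was −0.25 (standard error 0.07, limma adjusted p = 0.0465), and the call was lost in 11 of 12 omissions, all but that of akr7a3-/- eye 4, with adjusted p values of at least 0.0507.

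The most abundant tested genes of the other lists were irf1b, b2m and cd74a, described above, tbk1 among the sensors and ifi30 among the effector genes. tbk1, the kinase that activates interferon regulatory factors, had a median of 25.7 FPKM in akr7a3+/+ eyes and 23.3 FPKM in akr7a3-/- eyes (log2 fold change −0.19, limma adjusted p = 0.218). ifi30, a lysosomal thiol reductase, had medians of 22.9 and 21.0 FPKM (log2 fold change −0.02, limma adjusted p = 0.952). The lowest adjusted p among the effector genes was that of samhd1, a nucleotide hydrolase, at 0.0820 with a log2 fold change of 0.44, and this gene was named after its value was seen. Of the effector genes 14 were above 0 and 28 below, with a median log2 fold change of −0.05, and of the class I genes 27 were above 0 and 8 below, with a median of 0.12. Over all tested genes 8933 were above 0 and 9540 below, with a median of −0.01. Whether the lists differ from all tested genes in direction was not tested.

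akr7a3+/+ eye 1 stood high in the list of effector genes, and in other lists too. This eye was the highest of the 12 in 23 of 42 tested effector genes, 54.8%, whereas it was the highest in 14.0% of all tested genes. It was also the highest in 50% of the sensors, 44.4% of the STAT and IRF factors and 42.9% of the macrophage and microglia markers. akr7a3-/- eye 1 was the highest in 11 of the 42 tested effector genes, 26.2%, against 15.5% of all tested genes. Measured from each gene's own median over the 12 eyes, the effector genes had a median deviation of 0.75 on the log2 scale in akr7a3+/+ eye 1, 0.28 in akr7a3+/+ eye 4 and 0.27 in akr7a3-/- eye 1, where the median over all tested genes was 0.04, −0.01 and 0.07. At least 1 above their own median on that scale were 13 of 42 effector genes in akr7a3+/+ eye 1 and 8 in akr7a3+/+ eye 4, which is 31.0% and 19.0% against 2.51% and 0.991% of all tested genes. In akr7a3+/+ eye 1 the median deviation was also 0.56 for 14 macrophage and microglia markers, 0.55 for 9 leukocyte markers and 0.59 for 11 lymphocyte markers, and its summed level of retinal markers, 19223 FPKM, was the lowest of the 12 eyes. The part of these shifts in the effector genes was not tested.

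Single effector genes, named after their values were seen, showed the same eyes at the top. rsad2 (viperin, an antiviral enzyme) stood at 14.4 FPKM in akr7a3+/+ eye 1 and 7.35 FPKM in akr7a3+/+ eye 4, and between 0.809 and 3.23 FPKM in the other 10 eyes. cmpk2, a nucleotide kinase, stood at 5.27 and 3.29 FPKM in these 2 eyes, and pkz, a kinase that binds Z-form nucleic acid, at 10.5 and 4.18 FPKM. mxe, an antiviral GTPase, reached 10.5 FPKM in akr7a3+/+ eye 1 with a median of 1.16 FPKM over the akr7a3+/+ eyes, but the mx genes have close copies and the treatment of shared reads is not given in the sources used here. mxc did not follow this order, with 3.50 FPKM in akr7a3+/+ eye 1, 15.1 FPKM in eye 4 and 12.6 FPKM in akr7a3-/- eye 1. Among these effector genes the log2 fold change ran from −1.01 for rsad2 (limma adjusted p = 0.158) to 0.21 for mxc (limma adjusted p = 0.765). In rsad2, 4 akr7a3-/- eyes were below the lowest akr7a3+/+ eye. The interferon genes themselves were low, with ifnphi1 between 0.108 and 0.870 FPKM and ifng1 between 0 and 0.994 FPKM, on at most 25 and 14 reads. Their log2 fold changes were −0.43 and −0.17 (limma adjusted p = 0.102 and 0.759).

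**Figure D3:**
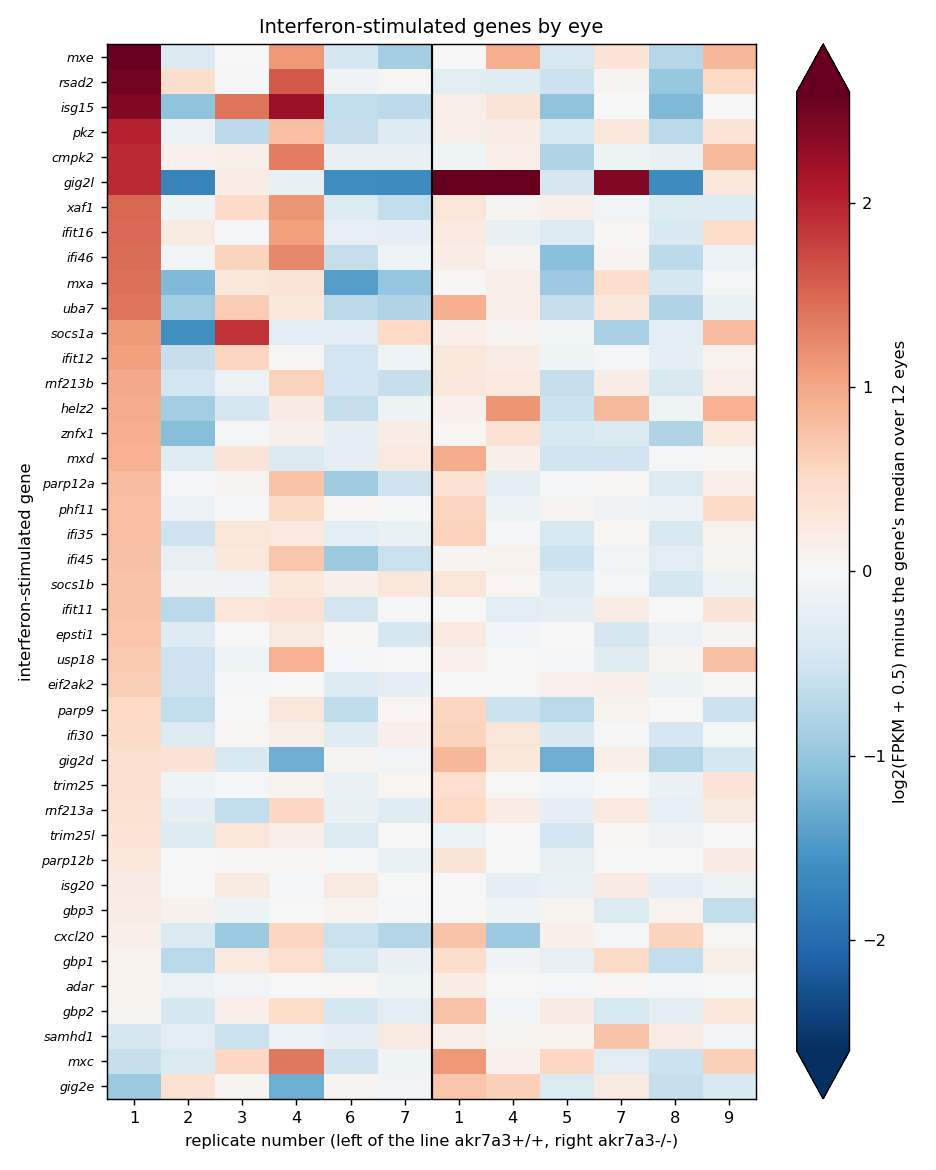
Difference of log2(FPKM + 0.5) from the gene's median over 12 eyes for the 42 tested interferon-stimulated genes (rows, ordered by akr7a3+/+ eye 1), with 1 column per eye. The column of akr7a3+/+ eye 1 is the reddest, with 39 genes above their median, akr7a3-/- eye 1 has 37 and akr7a3+/+ eye 4 has 32. Of all 18473 tested genes 10845, 12159 and 8703 are above their median in these eyes, in the same order. In akr7a3+/+ eyes 2, 6 and 7 and akr7a3-/- eyes 5 and 8 most genes are below their median.

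To see which genes moved together from eye to eye, the genotype means were subtracted from log2(FPKM + 0.5) and the 28 pairs of the 8 genes were correlated over the 12 eyes. Of these pairs 15 had a Benjamini-Hochberg adjusted permutation p under 0.05 for Pearson's r, with 100000 permutations of eyes within genotype. No share of passing pairs over all tested genes stands beside this count, so it cannot tell whether these genes move together more than others. isg15 passed with stat2, irf1b, irf7, b2m and tap1. irf7 and isg15 had r = 0.86 (permutation p = 1.0e-05, the smallest these permutations can give, adjusted 0.00028) and Spearman's rho = 0.96 (permutation p = 1.0e-05, adjusted 0.00028), with 0.86 within akr7a3+/+ eyes, 0.80 within akr7a3-/- eyes and 0.86 without the 2 eyes farthest from the median of irf7. stat2 and isg15 had r = 0.86 (permutation p = 0.00168, adjusted 0.0145) and rho = 0.80 (permutation p = 0.00940, adjusted 0.0250), with 0.97 within akr7a3+/+ eyes, 0.65 within akr7a3-/- eyes and 0.93 without the 2 farthest eyes. irf1b and isg15 had r = 0.75 (permutation p = 0.00043, adjusted 0.00602) and rho = 0.84 (permutation p = 0.00216, adjusted 0.0202), with 0.97 within akr7a3+/+ eyes, 0.73 within akr7a3-/- eyes and 0.96 without the 2 farthest eyes.

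Not every pair held in both genotypes. stat2 and irf7 had r = 0.74 over all eyes (permutation p = 0.00969, adjusted 0.0199) and rho = 0.81 (permutation p = 0.00539, adjusted 0.0230), 0.96 within akr7a3+/+ eyes but 0.09 within akr7a3-/- eyes, and 0.80 without the 2 farthest eyes. Whether the relation differs between the genotypes was not tested.

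The pairs of irf9 did not pass the test. They were 7, with r from 0.26 to 0.58 and adjusted permutation p of at least 0.113. The highest was the pair with irf1b, with r = 0.58 (permutation p = 0.0754, adjusted 0.113) and rho = 0.34 (permutation p = 0.304, adjusted 0.354), and 0.28 without the 2 farthest eyes.

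b2m passed with each of the other genes but irf9, so also with isg15 and the class II gene cd74a. tap1 passed with irf1b, irf7, isg15 and b2m. b2m and isg15 had r = 0.81 (permutation p = 0.00397, adjusted 0.0145) and rho = 0.77 (permutation p = 0.0111, adjusted 0.0250), with 0.82 without the 2 farthest eyes. b2m and cd74a had r = 0.80 (permutation p = 0.00413, adjusted 0.0145) and rho = 0.71 (permutation p = 0.0170, adjusted 0.0340), with 0.75 without the 2 farthest eyes, 0.72 within akr7a3+/+ eyes and 0.88 within akr7a3-/- eyes. cd74a and isg15 had r = 0.49 (permutation p = 0.0880, adjusted 0.117) and rho = 0.39 (permutation p = 0.227, adjusted 0.318), and r was 0.62 without the 2 farthest eyes.

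Leukocyte markers moved with part of these genes. The 9 general leukocyte markers were all detected, 0 were at 0 in any eye and 0 were called between the genotypes, and their summed level lay between 60.6 and 120 FPKM in akr7a3+/+ eyes and between 52.4 and 132 FPKM in akr7a3-/- eyes. Of these markers 7 were highest in akr7a3-/- eye 1 and 2 in akr7a3+/+ eye 1. ptprc (CD45, on all leukocytes) stood at 10.3 FPKM in akr7a3-/- eye 1 and between 1.86 and 4.996 FPKM in the other 11 eyes. The table held 18 lymphocyte markers, of which 3 were at 0 in some eye, 11 were tested and 0 were called. Their summed level lay between 10.7 and 29.0 FPKM in akr7a3+/+ eyes and between 14.1 and 38.604 FPKM in akr7a3-/- eyes, and 7 of the 11 were highest in akr7a3-/- eye 1. The same eye was low in the markers of glia, pigment epithelium and lens, whose sum was 554 FPKM against 1161 to 2972 FPKM in the other 11 eyes, and the part of this in its levels of cd74a, b2m and tap1 was not tested.

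Over the 12 eyes, with genotype means subtracted, the mean log2 level of the leukocyte markers had r = 0.86 with cd74a (permutation p = 0.000960, adjusted over 24 relations 0.00756; rho = 0.86, permutation p = 0.00142), and 0.79 without the 2 farthest eyes. With b2m, r was 0.76 (permutation p = 0.00430, adjusted 0.0172) and rho was 0.73 (permutation p = 0.0109), with 0.81 without the 2 farthest eyes. With isg15, r was 0.40 (permutation p = 0.132, adjusted 0.151) and rho was 0.38 (permutation p = 0.198), with 0.60 without the 2 farthest eyes. The lymphocyte markers had r = 0.87 with b2m (permutation p = 0.00022, adjusted 0.00528), 0.81 with irf1b (permutation p = 0.00211, adjusted 0.0101) and 0.62 with isg15 (permutation p = 0.0107, adjusted 0.0289), with rho of 0.83, 0.80 and 0.63 (permutation p = 0.00151, 0.00229 and 0.0115) and r of 0.82, 0.62 and 0.58 without the 2 farthest eyes. The lymphocyte markers also passed with cd74a (r = 0.83, adjusted permutation p = 0.00756), tap1 (0.80, 0.00756) and irf7 (0.70, 0.0256). Without the 2 farthest eyes these r were 0.87, 0.63 and 0.40. With stat2 and irf9 the lymphocyte markers did not pass by r (0.53 and 0.53, adjusted permutation p = 0.117 and 0.126). By rho stat2 passed narrowly (0.66, adjusted permutation p = 0.0499) and irf9 did not (0.50, adjusted permutation p = 0.214). Without the 2 farthest eyes r was 0.71 with stat2 and 0.39 with irf9. The leukocyte markers also passed by r with tap1 (r = 0.69, adjusted permutation p = 0.0289), with 0.53 without the 2 farthest eyes. By rho this relation did not pass (0.62, adjusted permutation p = 0.0867). The part of these cells in the levels was not tested.

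**Figure D4:**
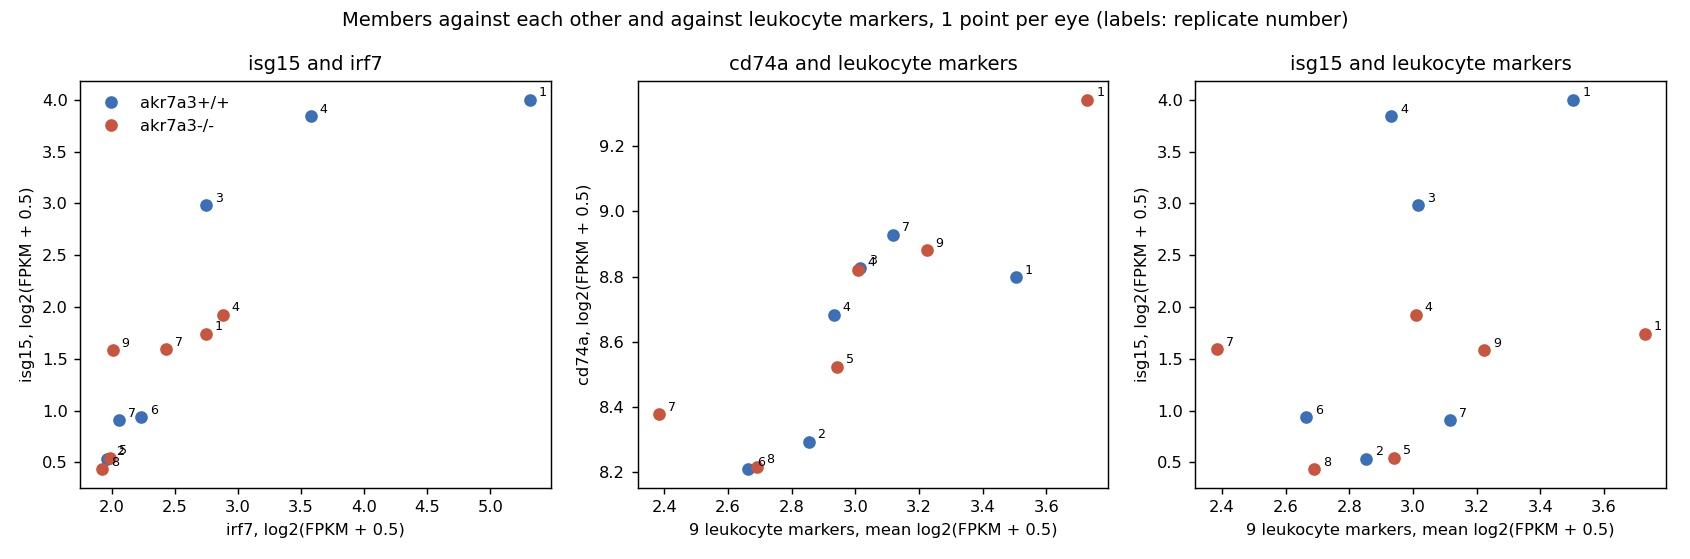
Each point is an eye, labelled with its replicate number, with log2(FPKM + 0.5) of isg15 against irf7 on the left, of cd74a against the mean of 9 leukocyte markers in the middle, and of isg15 against the same markers on the right. isg15 rises with irf7 over all eyes, cd74a rises with the leukocyte markers, and isg15 is scattered against these markers. akr7a3+/+ eyes 3 and 4 are high in isg15 at middling marker levels. The points keep their genotype means, and r after subtracting these means was 0.86, 0.86 and 0.40 from left to right.

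Of 14 tested macrophage and microglia markers 2, or 14.3% where 11.55% of all tested genes were called, were lower in akr7a3-/- eyes, marco, a scavenger receptor (log2 fold change −1.06, limma adjusted p = 0.0189), and mpeg1.2, a pore-forming protein of macrophages (log2 fold change −1.13, limma adjusted p = 0.0415), and 0 were higher, while voom called marco alone. mpeg1.1, the usual macrophage reporter gene, had a log2 fold change of −0.05 (limma adjusted p = 0.924). The summed level of the list lay between 419 and 616 FPKM in akr7a3+/+ eyes and between 516 and 699 FPKM in akr7a3-/- eyes. With cd74a, the mean log2 level of these markers had r = 0.68 (permutation p = 0.0283, adjusted 0.0616) and rho = 0.50 (permutation p = 0.116), and 0.42 without the 2 farthest eyes. With irf9, r was 0.74 (permutation p = 0.0145, adjusted 0.0349) and rho was 0.78 (permutation p = 0.0123), with 0.73 without the 2 farthest eyes, and the part of these cells in the irf9 level was not tested.

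The genes most like each of the 8 over the 12 eyes, with genotype means subtracted, are given as a description. For irf7 they were zgc:153654 (r = 0.98), si:ch211-281g13.4 (0.97) and cgas (0.96), the sensor of cytosolic DNA, which stood at 11.3 FPKM in akr7a3+/+ eye 1 and at most at 1.43 FPKM elsewhere. For isg15 they were a gene listed as ENSDARG00000087575 (0.96), zgc:152670 (0.95) and mov10b.1 (0.94), a copy of the RNA helicase MOV10. For stat2 they were cmpk2 (0.93), si:dkey-23k10.3 (0.93) and lgals17 (0.92).

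Of the 9 genes most like the antigen presentation genes, cd74b and psme2 are on the lists of antigen presentation. cd74a was closest to its copy cd74b (0.95), si:dkey-81j8.6 (0.94) and def6a (0.93). b2m was closest to cabz01093075.1 (0.95), psme2 (0.95), a subunit of the proteasome activator that interferon induces, and ampd3b (0.94). tap1 was closest to si:dkey-97a13.6 (0.91), irf10 (0.91) and epsti1 (0.91). For irf1b they were si:ch211-183d5.2 (0.94), CABZ01073795.1 (0.93) and spata6l (0.92), and for irf9 they were ifng1 (0.93), tmem234 (0.92) and si:dkey-58f10.14 (0.90). ifng1 was at 0.443 FPKM on average, with 0 to 14 reads in an eye, so that its differences between eyes rest on few reads. Of these 24 genes 6 are on the lists of the pathway by symbol. cgas, a sensor, is not among the 6, because the lists hold other symbols for it.

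Some genes of the class I list were nearly absent from certain eyes of both genotypes, which was noticed after their values were seen. mhc1uba, a classical class I heavy chain, was at 0.0185 FPKM (1 read) in akr7a3+/+ eye 3, 0.0294 FPKM (2 reads) in akr7a3+/+ eye 6, 0.795 FPKM (71 reads) in akr7a3-/- eye 8 and 9.30 FPKM (802 reads) in akr7a3-/- eye 7, and between 141 and 377 FPKM in the other 8 eyes. mhc1uka was at or under 0.854 FPKM in the same 4 eyes and at or above 7.51 FPKM in the rest. tapbp.1, tapasin, which bridges class I molecules and the peptide pump, was between 2.01 and 4.70 FPKM in these 4 eyes and between 7.34 and 18.5 FPKM in the others.

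mhc1zba, a class I heavy chain of another zebrafish lineage, was low in a different set of eyes. It was between 1.44 and 1.76 FPKM in akr7a3+/+ eyes 2, 3 and 4 and akr7a3-/- eyes 5 and 8, and between 81.8 and 195 FPKM in the other 7 eyes. b2m, the class I light chain, had no such gap, and its lowest and highest eyes differed 2.49-fold. The genotype differences of mhc1uba (log2 fold change 1.11, standard error 1.95, limma adjusted p = 0.774) and mhc1zba (standard error 1.62, limma adjusted p = 0.722) were smaller than their standard errors. Class I genes have near-identical copies, and how reads shared between copies were counted is not given in the sources used here.

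**Figure D5:**
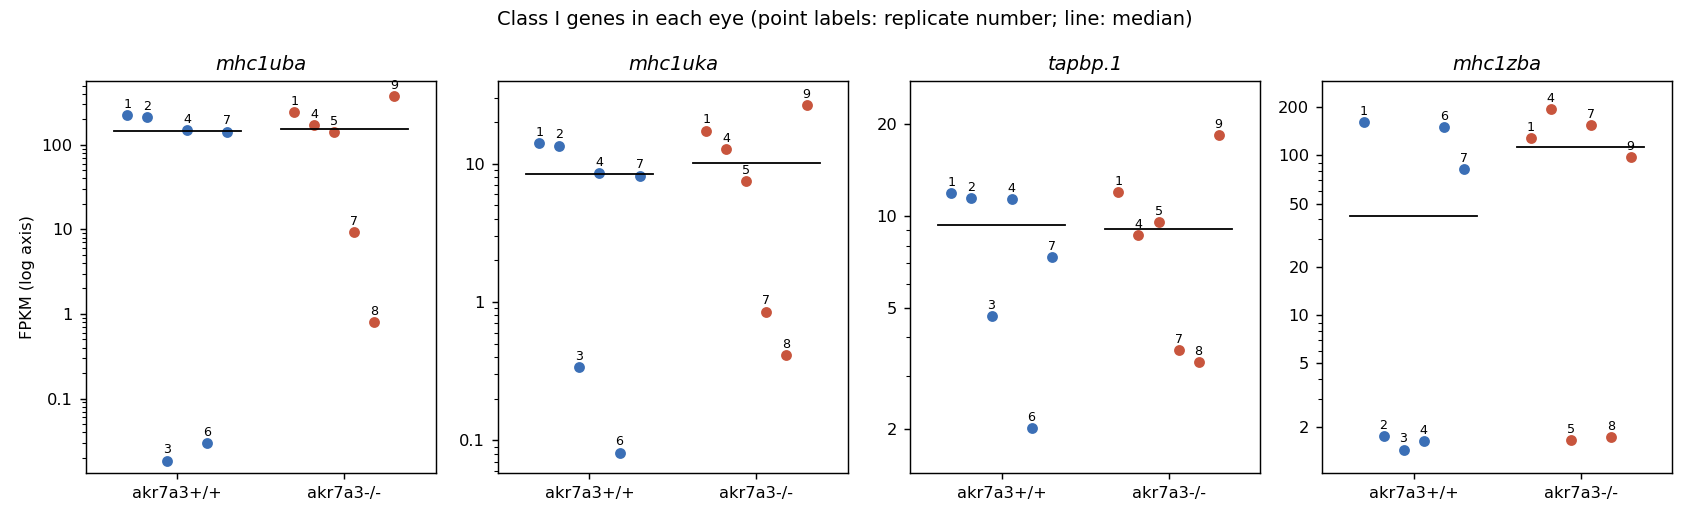
FPKM of mhc1uba, mhc1uka, tapbp.1 and mhc1zba in each eye on a log axis, with akr7a3+/+ eyes on the left, akr7a3-/- eyes on the right, replicate numbers at the points and the median of each genotype as a line. The first 3 genes are low in akr7a3+/+ eyes 3 and 6 and akr7a3-/- eyes 7 and 8, and mhc1zba is low in akr7a3+/+ eyes 2, 3 and 4 and akr7a3-/- eyes 5 and 8.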

How the data were processed

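RNA was measured in 12 eyes, 1 library per eye. Per the labels and the study's methods, strand-specific libraries of polyadenylated RNA were read on the DNBSEQ platform. HISAT2 served to map reads to GRCz11 and featureCounts 2.0.3 to assign them to genes, and the authors deposited FPKM values. Which annotation release was used, and how strand and reads shared by several genes were handled, is not given in the sources used here.

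limma 3.58.1 (R 4.3.3) was run on log2(FPKM + 0.5) for the 18473 genes that reached 0.5 FPKM in 6 or more eyes. The model had a mean-variance trend and a single term, the genotype. A gene was called at an adjusted p (Benjamini-Hochberg, over all tested genes) under 0.05. Because of the pseudocount, changes of low genes come out too small. The FPKM of a gene steps in whole reads. From these steps whole reads, within 0.02 of an integer, were recovered for all 25432 genes, of which 751 were at 0 in every eye, and voom was run on them with TMM library sizes. A gene with few reads is less precise than one with many. Correlations over eyes were computed in Python 3.11.15 with SciPy 1.17.1, after subtracting genotype means, and p came from 100000 permutations within genotype.

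The genes and all lists were chosen with earlier results of these data known, and results for 2 further genes chosen with these 8 are not reported here, so that counts over the 8 are not counts over all the genes chosen. The genes named were akr7a3, the 8 genes, from each list the called genes (at most 4 per direction) and the most abundant tested gene, and per gene the 3 most alike. Other genes are said to have been named after their values were seen. The pathway lists had 237 symbols, those of the 8 genes included, matched by symbol alone, and 159 genes other than the 8 were found. The sensor list holds other symbols for cgas, so that cgas was not matched and is not counted in it. Chromosomes were taken from a table of GRCz12tu, which placed 88.2% of tested genes, and no coordinates are given. Alternatives were other pseudocounts (0.1 and 1), no filter, median-of-ratios scaling, quantile normalization, voom, a replicate block, a minimum absolute log2 fold change of 0.5 and leaving out each eye. The scripts were tested on simulated data. Larvae, livers and other assays of the study are not analysed here.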

Additional observations from a re-analysis of the deposited data

Results flagged for a closer look

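Of 28 sets of 6 eyes looked at, for akr7a3, the 8 genes and the further genes named by rule, 3 held an eye whose gap to its neighbour, as a share of the set's range, exceeded the 95% limit of Dixon's test, and chance flags about 1 in 20 sets. irf7 stood at 39.2 FPKM in akr7a3+/+ eye 1, where the other akr7a3+/+ eyes lay between 3.39 and 11.4 FPKM. jak1 stood at 18.0 FPKM in akr7a3-/- eye 7, the lowest of its genotype, where the others lay between 20.2 and 21.5 FPKM. tbk1 stood at 30.9 FPKM in akr7a3+/+ eye 3, where the others lay between 25.0 and 26.9 FPKM.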

How the results depend on the processing

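Of the 8 genes, 0 were called under any other scaling, pseudocount, filter or test, nor with a minimum absolute log2 fold change of 0.5, which left 0 genes of the wider lists and 1002 of all tested genes. Over the omissions of an eye 0 to 1 of the 8 genes was called, irf1b without akr7a3-/- eye 1. Omitting an eye turned the sign of uncalled genes near 0: stat2 (−0.0760 to 0.143), irf9 (−0.0116 to 0.116), tap1 (−0.0706 to 0.160), cd74a (−0.0592 to 0.166) and ifi30 (−0.140 to 0.0696). Over all alternatives, 138 of 152 fold changes of the 8 genes kept their sign and their side of the threshold, 2 gained the call and 12 turned sign. azi2 lost its call in 16 alternatives. Of the replicate numbers, 1, 4 and 7 occur in both genotypes. Over all tested genes same-numbered eyes did not deviate together (r = 0.08, −0.20 and 0.07). These values cannot tell whether such eyes were paired or handled together, which the labels do not say. With the replicate block, 1 of the 8 genes was called, irf1b lower (adjusted p = 0.0463), and 1924 of all tested genes.

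Of all calls, 50.1% were higher in akr7a3-/- eyes as deposited, 53.6% with median-of-ratios scaling, 56.0% with quantile normalization and 58.2% with voom. voom called 2359 of all tested genes and 4 genes of the wider lists, jak1, ctsla, stat5b and tapbpl. Chosen after seeing the data, other scalings made akr7a3+/+ eye 1 the highest in 19 and 20 of 42 effector genes in place of 23, and in 29 of 55 without the filter. The correlations of stat2 and isg15, of irf7 and isg15, and of b2m and cd74a kept their side of an unadjusted 0.05 under both scalings and both pseudocounts, at 0.85 to 0.87, 0.85 to 0.86 and 0.77 to 0.80. Depth limits ifng1, ifnphi1 and isg15 in the low eyes, where few reads were counted.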

Other observations

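gig2l and socs1a, further genes of the lists named after their values were seen, varied between eyes of both genotypes in other orders. gig2l, a gene of a fish-specific interferon-induced family, stood at 22.4, 14.3 and 8.41 FPKM in akr7a3-/- eyes 1, 4 and 7, at 5.89 FPKM in akr7a3+/+ eye 1 and at or under 1.51 FPKM in the other 8 eyes, with 0 reads in akr7a3+/+ eye 2 (log2 fold change 1.76, limma adjusted p = 0.261). socs1a, a feedback inhibitor of Janus kinases, was highest in akr7a3+/+ eye 3 at 39.0 FPKM and lowest in akr7a3+/+ eye 2 at 3.07 FPKM (log2 fold change −0.25, limma adjusted p = 0.790). tapbpl and stat5b were also named after their values were seen. tapbpl had a log2 fold change of 0.34 (limma adjusted p = 0.0761), with 6 akr7a3-/- eyes above the akr7a3+/+ median. stat5b, a STAT factor of cytokine and growth hormone receptors, had one of 0.22 (limma adjusted p = 0.0717). Above the highest akr7a3+/+ eye were 5 akr7a3-/- eyes in stat5b and 2 in tapbpl.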
